A study of Mus musculus with 10 samples.

Results

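The PDGF and KIT receptors and their ligands were examined at the level of promoter H3K4me3 in naive extra-embryonic endoderm (nEnd), a mouse stem cell culture of the primitive endoderm (PrE). The 7 genes, *Pdgfra*, *Pdgfrb*, *Pdgfa*, *Pdgfb*, *Pdgfc*, *Kit* and *Kitl*, were chosen by name from 21755 protein-coding genes, of which 11632 had a promoter peak in at least 1 library. All libraries came from a single OCT4-mCherry reporter line, kept without treatment and expanded in RACL medium (RPMI with Activin A, CHIR99021 and LIF) on embryonic fibroblast feeders. By FACS the cells were divided into 3 populations: Oct4+ nEnd (reporter on, no surface PDGFRA; 4 libraries), DP nEnd (reporter and PDGFRA both on; 3 libraries) and Pdgfra+ nEnd (PDGFRA alone; 3 libraries). The assay was CUT&Tag for H3K4me3: an antibody brings the transposase Tn5 to the mark, and the DNA around it is cut and tagged. The study calls its replicates biological, and no label says whether they came from separate cultures, so p-values measure the spread between these libraries, which may be technical. *Pdgfra* encodes the surface protein used for the sort, and its difference between the PDGFRA-negative gate and the other 2 gates is therefore a check of the sort and not a finding.

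The PDGF and KIT receptors are class III receptor tyrosine kinases, which dimerise when a ligand binds and then recruit adaptors, PI3-kinase and phospholipase C. PDGFRA binds ligands built from the A, B and C chains, PDGFRB binds mainly the B chain, and KIT binds stem cell factor, the product of *Kitl*. In the mouse blastocyst PDGFRA is a marker of the PrE lineage and its signalling is known to support survival of these cells, while the epiblast (Epi) is known as a source of PDGFA. H3K4me3 collects around transcription start sites (TSSs), typically those of genes that are transcribed or poised, and a gene was called marked when a peak overlapped the window from 1000 bp before to 100 bp after any of its TSSs.

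The sequence before the starts of *Pdgfra*, *Kit* and *Kitl* is shown because these are the 3 members at which every Oct4+ nEnd library lay below every DP nEnd library. The stretches are the 250 bases before the first annotated start of each in GRCm38, plus strand, and none of these bases is exonic in the annotation. Capitals mark each CG and each GC box (GGGCGG or its reverse complement CCGCCC, which also hold a CG).
Pdgfra, first start, chr5:75152042-75152291: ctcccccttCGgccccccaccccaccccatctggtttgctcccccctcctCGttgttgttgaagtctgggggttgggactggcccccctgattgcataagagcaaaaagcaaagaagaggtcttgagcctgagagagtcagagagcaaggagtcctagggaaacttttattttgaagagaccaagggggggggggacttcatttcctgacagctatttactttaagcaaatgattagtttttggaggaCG
Kit, first start, chr5:75574666-75574915: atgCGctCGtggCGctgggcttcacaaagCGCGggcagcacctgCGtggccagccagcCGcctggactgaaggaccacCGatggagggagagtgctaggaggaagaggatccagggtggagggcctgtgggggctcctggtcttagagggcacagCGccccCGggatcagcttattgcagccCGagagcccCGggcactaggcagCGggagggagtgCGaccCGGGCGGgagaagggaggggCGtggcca
Kitl, first start, chr10:100015380-100015629: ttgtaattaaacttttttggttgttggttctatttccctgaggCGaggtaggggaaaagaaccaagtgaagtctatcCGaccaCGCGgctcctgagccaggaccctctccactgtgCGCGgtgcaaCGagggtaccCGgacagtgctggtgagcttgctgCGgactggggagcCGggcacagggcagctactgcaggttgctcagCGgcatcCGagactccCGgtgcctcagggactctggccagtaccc

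The first *Pdgfra* start had 3 CG in 250 bases, against 17 before *Kit* and 13 before *Kitl*. Of the 32851 promoters in the RefSeq table of the same build, 37.8% held no more CG over the 250 bases before the start than the *Pdgfra* stretch, 78.3% no more than *Kit* and 70.6% no more than *Kitl*. A GC box was present once before *Kit* and absent from the other stretches, and 32.7% of all RefSeq promoters held it on either strand. The letters GATAA, which are part of the GATA motif, the octamer ATGCAAAT and the TATA letters TATAAA were in none of the 3 stretches on either strand, where 22.6%, 1.60% and 12.4% of all RefSeq promoters held them. The RefSeq table held promoters for 5 of the 7 genes, and its start for *Kitl* lies further into the gene, where the 250 bases held 23 CG, 2 GC boxes and 1 match to the TATA letters. A match or its absence describes these letters in these windows only.

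For each library the authors deposited SEACR peaks with a total signal (coverage summed over the peak) and a highest coverage. Coverage was not scaled between libraries and the depth is unknown, so each promoter peak was placed by its percentile, the percent of the peaks of its own library at or below it, with 0 where a gene had no peak. The lists held 3477 to 10545 peaks, the fewest in Oct4+ nEnd replicates 3 and 4 (3477 and 4887). Pdgfra+ nEnd replicate 2 stood apart by its narrow peaks, with a median width of 2204 bp against 3032 to 4222 bp in the other 9 libraries. The lowest listed peak differed too: on a log2 scale relative to the median over the 3616 genes marked in every library, it lay at -2.07, -2.17, -0.85 and -1.44 in Oct4+ nEnd replicates 1 to 4, at -1.92 to -2.34 in DP nEnd and at -1.20 to -3.45 in Pdgfra+ nEnd. A peak below these levels was not detectable in that library. Lineage markers were as follows: each Oct4+ nEnd library held a promoter peak at all 6 Epi markers, and each DP and Pdgfra+ nEnd library at all 7 PrE markers. Markers of the other lineage were present too: Oct4+ nEnd replicates 1, 2 and 3 held 3, 2 and 1 of the PrE markers, at percentile 41 or lower, the DP nEnd libraries held 5 or 6 of the Epi markers, at 72.4 or lower, and Pdgfra+ nEnd replicate 1 held 2, at 24.2 or lower. Of 12 fibroblast markers at most 2 were marked in any library (*Twist1* and *Fbn1*, at percentile 13.0 or lower), and *Col1a1*, *Col1a2*, *Col3a1*, *Thy1*, *Prrx1*, *Twist2*, *Postn*, *Lum*, *Dcn* and *Fap* had no peak in any of the 10 libraries. None of 4 endothelial markers was marked, among them *Pecam1*, whose protein the paper uses as a marker of the pluripotent cells of nEnd culture. Of 4 blood markers only *Runx1* was marked, at percentile 93.0 to 97.2 in DP nEnd, 16.5 to 96.9 in Pdgfra+ nEnd and 12.2 or lower in Oct4+ nEnd. Of 4 trophectoderm markers *Tfap2c* was marked in every Oct4+ nEnd library, *Eomes* and *Cdx2* in some libraries and *Elf5* in none.

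*Pdgfra*, the receptor for the A, B and C chains, carried a peak among the strongest of each PDGFRA-sorted library. By total signal it ranked 15, 10 and 6 in DP nEnd replicates 1 to 3 and 3, 13 and 4 in Pdgfra+ nEnd replicates 1 to 3. In Oct4+ nEnd it was listed in replicate 1 alone, at percentile 15.7 by total signal and 18.6 by highest coverage. This is the Oct4+ nEnd library with the most PrE markers marked and with the most peaks (9144). On the log2 scale the *Pdgfra* peak there stood at -1.67. The lowest listed peaks of replicates 3 and 4 (-0.85 and -1.44) lay above this level and that of replicate 2 (-2.17) below it. Why only replicate 1 listed the peak was not tested. The 6 PDGFRA-sorted libraries thus lay at percentile 99.8 or higher and the Oct4+ nEnd libraries at 15.7 or lower. Between DP nEnd (99.9 ± 0.0540, SD, n = 3) and Pdgfra+ nEnd (99.9 ± 0.0904, SD, n = 3) the libraries overlapped, and their mean percentiles differed by -0.0328, less than the SD of either (p = 0.600, exact permutation test, two-sided). So near the top of the scale a percentile can hardly differ. On the log2 scale they overlapped by total signal (1.62 to 1.91 in DP and 1.61 to 2.19 in Pdgfra+ nEnd). By highest coverage they did not (0.548 to 0.659 and 0.745 to 0.939).

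**Figure D1:**
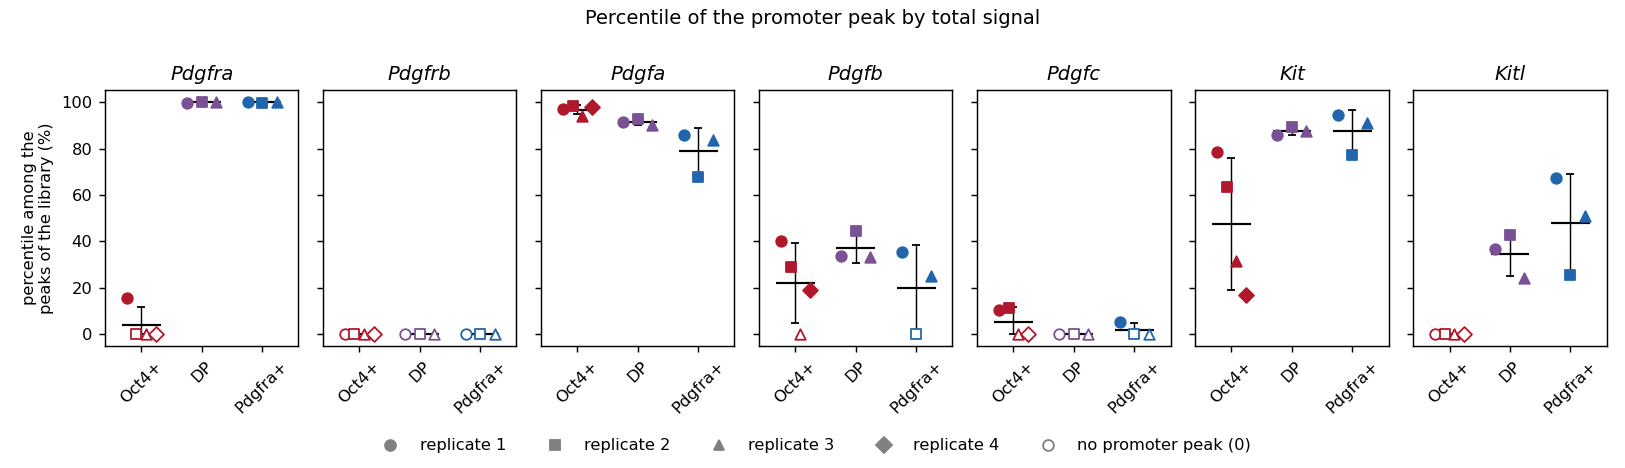
Percentile of the leading promoter peak by total signal (%, vertical axis) for the 7 genes in Oct4+, DP and Pdgfra+ nEnd; each symbol is a library, open symbols have no peak and stand at 0, and lines with bars are means ± SD (the lower bar ends at 0). *Pdgfra* and *Kitl* are separated from Oct4+ nEnd in both PDGFRA-sorted populations, *Pdgfa* steps down from Oct4+ to Pdgfra+ nEnd, and *Pdgfrb* is at 0 in all 10 libraries.

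The *Pdgfra* peak was also a broad one. Its width was 10155, 11216 and 10939 bp in DP nEnd replicates 1 to 3 and 11873, 5011 and 9404 bp in Pdgfra+ nEnd replicates 1 to 3, against 4427 bp in Oct4+ nEnd replicate 1. Pdgfra+ nEnd replicate 2, the library with narrow peaks throughout, was low in bp but not within its own list, where the *Pdgfra* peak was wider than or as wide as 98.9% of the peaks. In the other 5 PDGFRA-sorted libraries this share was 98.4% to 99.7%, and in Oct4+ nEnd replicate 1 it was 58.4%. The DP and Pdgfra+ nEnd widths overlapped (difference 2007 bp, exact two-sided permutation test, p = 0.5). Without Pdgfra+ nEnd replicate 2 the difference was 131.5 bp.

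In each of the 7 libraries with a *Pdgfra* peak the highest coverage lay 3398 to 4000 bp downstream of the principal start at chr5:75152306. Every tallest point thus lay within the gene and nearer to an internal annotated start than to the principal one. In Oct4+ nEnd replicate 1 and Pdgfra+ nEnd replicate 2 the peak began 534 and 446 bp downstream of the principal start and did not reach it, so that *Pdgfra* counted as marked there through internal starts. The same peaks overlapped promoters of *Gm42802* and *Gm42803*, whose reads cannot be separated from those of *Pdgfra*.

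**Figure D2:**
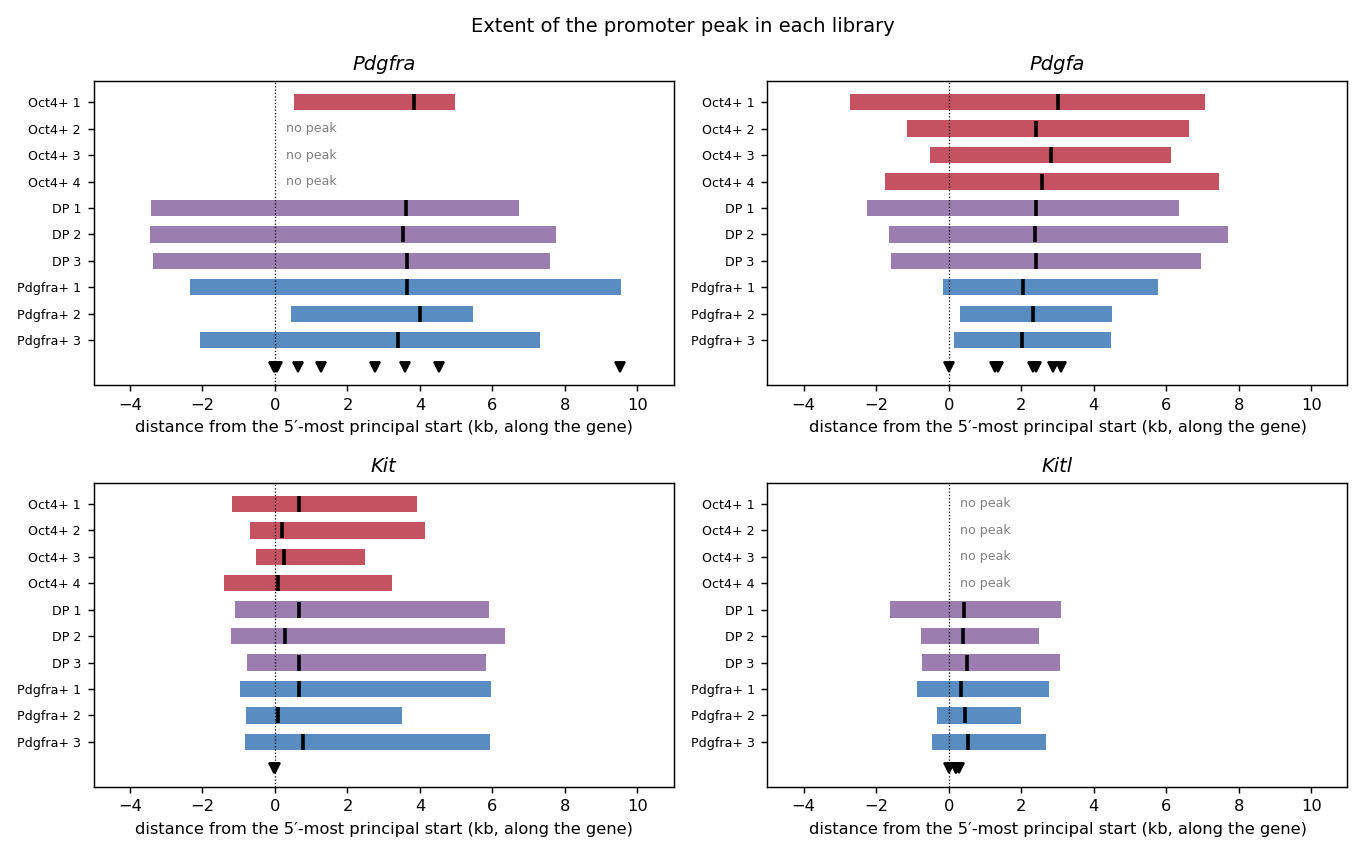
Extent of the leading promoter peak in each library (bars) relative to the 5′-most principal start (0 on the horizontal axis, kb along the gene), with a black tick at the centre of the highest coverage and triangles at annotated starts. The *Pdgfra* bars reach upstream of the principal start in 5 of 7 libraries while their ticks stay 3398 to 4000 bp into the gene, and the *Kit* bars are shorter in every Oct4+ nEnd library than in any DP nEnd library.

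*Kit*, the receptor for stem cell factor, was marked in 10 of 10 libraries, and its peak stood lower in Oct4+ nEnd than in DP nEnd. By total signal its percentile was 78.4, 63.6, 31.7 and 16.7 in Oct4+ nEnd replicates 1 to 4, 85.9, 89.1 and 87.6 in DP nEnd replicates 1 to 3 and 94.6, 77.1 and 91.0 in Pdgfra+ nEnd replicates 1 to 3. Every Oct4+ nEnd library was below every DP nEnd library, but Oct4+ nEnd replicate 1 was above Pdgfra+ nEnd replicate 2, so these 2 populations overlapped. The mean fell by 39.9 percentile points from DP nEnd (87.6 ± 1.57, SD, n = 3) to Oct4+ nEnd (47.6 ± 28.4, SD, n = 4) without passing the test (exact two-sided permutation test, p = 0.0571, Benjamini-Hochberg adjusted over 11632 genes 0.289). For Pdgfra+ nEnd (87.6 ± 9.27, SD, n = 3) the same exact test gave p = 0.114 and an adjusted value of 0.418. With equal numbers of peaks per library both differences were larger, at -48.3 and -51.0 points (p = 0.0286 for either, same exact test). Within Oct4+ nEnd the percentile was lowest in replicates 3 and 4, which listed the fewest peaks, although replicate 3 with the fewest stood above replicate 4. The part of list length in the difference was not tested. Over Oct4+ nEnd replicates 1 and 2 alone, an alternative chosen after seeing the data, the difference was smaller, at -16.5 points from DP nEnd, without overlap, and -16.5 from Pdgfra+ nEnd, with overlap.

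On the log2 scale relative to the genes marked in every library, where list length does not enter, *Kit* was at -0.141, -0.523, -0.392 and -1.11 in Oct4+ nEnd replicates 1 to 4, 0.177, 0.261 and 0.302 in DP nEnd and 0.534, 0.109 and 0.537 in Pdgfra+ nEnd. On this scale all Oct4+ nEnd libraries were below all libraries of the other populations, with a mean difference of -0.787 from DP nEnd (exact two-sided permutation test, p = 0.0571) and of -0.934 from Pdgfra+ nEnd (p = 0.0286, same exact test).

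The *Kit* peak was also narrower in Oct4+ nEnd than in DP nEnd. Its width was 5085, 4821, 2995 and 4638 bp in Oct4+ nEnd replicates 1 to 4 and 7004, 7544 and 6596 bp in DP nEnd replicates 1 to 3. The 2 populations did not overlap, with a mean difference of -2663 bp (p = 0.0286, adjusted 0.398, exact two-sided permutation test). No lower p is possible with 4 against 3 libraries, and with equal numbers of peaks per library the difference was -3823 bp and did not pass (p = 0.0571, same exact test). Pdgfra+ nEnd gave 6924, 4293 and 6771 bp, with the narrow-peaked replicate 2 inside the Oct4+ nEnd range (p = 0.229, same exact test). Ranked by width within each library's own list, *Kit* was at percentile 93.4, 96.7 and 98.3 in Pdgfra+ nEnd, 92.3 to 94.0 in DP nEnd and 31.1 to 81.2 in Oct4+ nEnd, so that on this scale neither PDGFRA-sorted population overlapped Oct4+ nEnd (p = 0.0571 for either, same exact test). The added length was downstream: the peak ended 2482 to 4141 bp into the gene in Oct4+ nEnd, 5812 to 6343 bp in DP nEnd, 5966 and 5932 bp in Pdgfra+ nEnd replicates 1 and 3 and 3503 bp in replicate 2. Pdgfra+ nEnd replicate 1 alone had a further small peak at chr5:75639409-75642573, at an internal *Kit* start, at percentile 7.61.

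**Figure D3:**
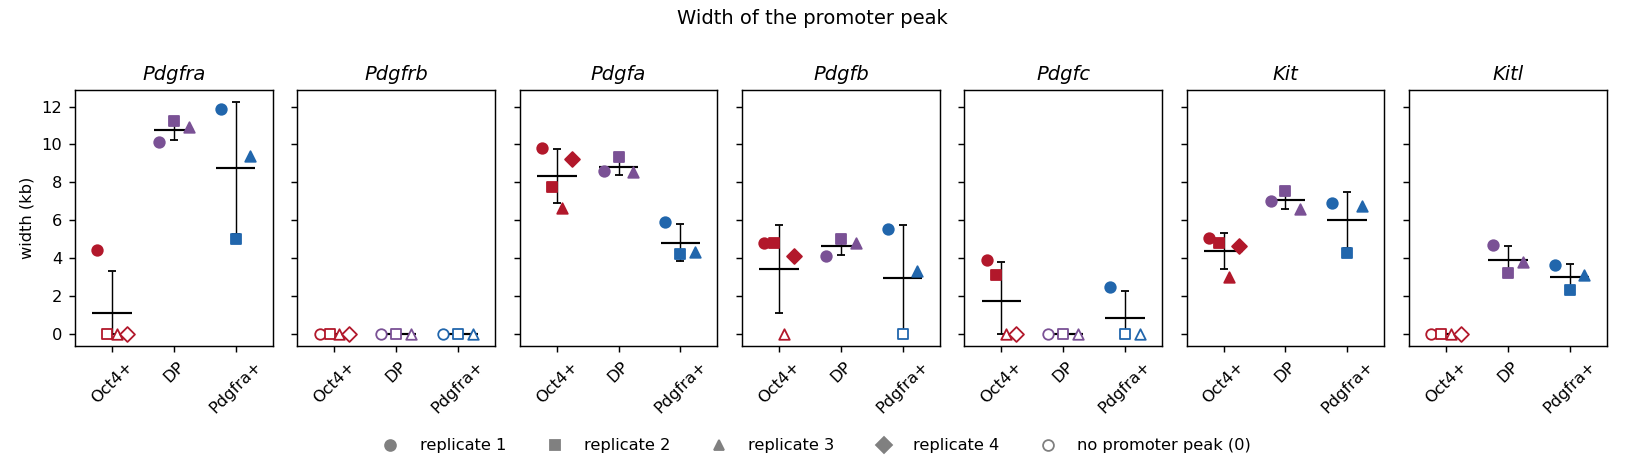
Width of the leading promoter peak (kb, vertical axis) for the 7 genes; each symbol is a library, open symbols have no peak and stand at 0, and lines with bars are means ± SD (the lower bar ends at 0). *Kit* is wider in all 3 DP nEnd libraries than in any Oct4+ nEnd library, and *Pdgfa* is narrower in all 3 Pdgfra+ nEnd libraries than in any other.

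*Kitl*, the gene of the KIT ligand stem cell factor, had no peak in any of 4 Oct4+ nEnd libraries and had one in each of the 6 PDGFRA-sorted libraries. Its percentile by total signal was 36.9, 42.8 and 24.3 in DP nEnd replicates 1 to 3 and 67.4, 25.7 and 50.9 in Pdgfra+ nEnd replicates 1 to 3, so the PDGFRA-sorted populations overlapped with each other and not with Oct4+ nEnd. Fisher's exact test on presence gave p = 0.0286 for each comparison with Oct4+ nEnd, the smallest p these libraries allow, and neither passed after adjustment over all genes tested (0.712 for DP nEnd and 0.852 for Pdgfra+ nEnd). A peak in every DP nEnd library and in no Oct4+ nEnd library was found for 3.64% of the genes tested, and in every Pdgfra+ nEnd library and in no Oct4+ nEnd library for 2.68%.

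The *Kitl* peak measured 4718, 3238 and 3803 bp in DP nEnd and 3644, 2308 and 3123 bp in Pdgfra+ nEnd. On the log2 scale above it was at -1.0, -1.04 and -1.32 in DP nEnd and at -0.555, -0.775 and -0.722 in Pdgfra+ nEnd. The lowest listed peaks of Oct4+ nEnd replicates 1, 2 and 4 lay below all of these values, whereas that of replicate 3, at -0.85, lay above the DP nEnd values. With only the 3477 strongest peaks of each library, *Kitl* was marked in 0 of 3 libraries of DP nEnd and 1 of 3 of Pdgfra+ nEnd, and the difference from Oct4+ nEnd was no longer called. Between DP and Pdgfra+ nEnd the percentiles of *Kitl* overlapped (difference -13.3, exact two-sided permutation test, p = 0.400), and the difference was -24.5 without Pdgfra+ nEnd replicate 2. On the log2 scale all DP nEnd libraries lay below all Pdgfra+ nEnd libraries (difference -0.438, p = 0.1, same exact test, the lowest possible).

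*Pdgfa*, which encodes the A chain that binds PDGFRA, ran the other way. It was marked in 10 of 10 libraries, at percentile 97.0, 98.4, 94.0 and 97.7 by total signal in Oct4+ nEnd replicates 1 to 4, 91.3, 92.6 and 90.1 in DP nEnd replicates 1 to 3 and 85.7, 67.8 and 83.8 in Pdgfra+ nEnd replicates 1 to 3. No 2 populations overlapped, with Oct4+ nEnd highest, DP nEnd between and Pdgfra+ nEnd lowest. Mean percentiles were 96.8 ± 1.90 (SD, n = 4), 91.4 ± 1.24 (SD, n = 3) and 79.1 ± 9.85 (SD, n = 3). Oct4+ nEnd exceeded Pdgfra+ nEnd by 17.7 points (exact two-sided permutation test, p = 0.0286, adjusted 0.240). The excess over DP nEnd was 5.41 points (p = 0.0571, same exact test, adjusted 0.289; with equal numbers of peaks 15.0 points, p = 0.0286) and that of DP nEnd over Pdgfra+ nEnd 12.3 points (p = 0.1 by the exact test, the lowest possible for 3 against 3 libraries, adjusted 1). Without Pdgfra+ nEnd replicate 2 the last difference was 6.61 points, still without overlap.

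By highest coverage the order at *Pdgfa* was less distinct. The percentile was 68.6 to 91.4 in Oct4+ nEnd, 62.9 to 74.5 in DP nEnd and 12.6, 59.5 and 61.9 in Pdgfra+ nEnd, so that Oct4+ and DP nEnd overlapped (p = 0.229, exact two-sided permutation test). In bp the peak was narrowest in Pdgfra+ nEnd: 9805, 7761, 6650 and 9212 bp in Oct4+ nEnd and 8620, 9345 and 8543 bp in DP nEnd, against 5937, 4216 and 4312 bp in Pdgfra+ nEnd. The difference in width was 3535 bp from Oct4+ nEnd (p = 0.0571, same exact test) and 4014 bp from DP nEnd (p = 0.1, same exact test). In Pdgfra+ nEnd the peak stopped near or short of the 5′-most principal start, reaching 170 bp beyond it in replicate 1 and ending 300 and 159 bp short of it in replicates 2 and 3, while it extended 517 to 2732 bp beyond it in the other 7 libraries. In every library the tallest point lay 2035 to 3025 bp into the gene from that start. It was nearer to an internal annotated start, which the peak covered. Without the narrow-peaked Pdgfra+ nEnd replicate 2 the difference in width from DP nEnd was 3712 bp. Ranked by width within its own list, *Pdgfa* was at percentile 87.8, 96.4 and 85.9 in Pdgfra+ nEnd, which overlapped the 94.7 to 96.6 of Oct4+ nEnd (p = 0.114, exact two-sided permutation test) and not the 96.8 to 98.1 of DP nEnd (p = 0.1, same exact test). The *Pdgfa* peak also covered the promoter of *6330403L08Rik*.

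The other members were weaker. *Pdgfb*, the gene of the B chain that binds both receptors, was marked in all 3 DP nEnd libraries, in 3 of the 4 of Oct4+ nEnd and in 2 of the 3 of Pdgfra+ nEnd, at percentile 19 to 44.5 where it had a peak, and its populations overlapped in every comparison by presence, percentile and width. It was missing from Oct4+ nEnd replicate 3 and Pdgfra+ nEnd replicate 2, whose lowest listed peaks lay at -0.85 and -1.20 on the log2 scale, while *Pdgfb* stood at -0.996 to -1.53 in the 8 libraries that listed it. Its peak was shared with *Gm41361*. *Pdgfc*, the gene of the C chain, was marked in Oct4+ nEnd replicates 1 and 2 and Pdgfra+ nEnd replicate 1 only, at percentiles of 10.4, 11.1 and 5.28. *Pdgfrb*, the second PDGF receptor and a gene of mesenchymal cells, had a peak in none of 10 libraries.

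The authors also deposited 1 consensus list for each population. Merging the peaks found in 2 or more libraries gave both ends of all 8101 consensus peaks of DP nEnd and all 7781 of Pdgfra+ nEnd with 3 replicates, and of all 7860 of Oct4+ nEnd with replicates 1, 2 and 4, against 95.2% with all 4. Oct4+ nEnd replicate 3, the library with the fewest peaks, is thus not needed for the authors' list, whereas it is part of the Oct4+ nEnd means given here. Without it the difference in mean percentile of *Kit* was -34.6 from DP nEnd and -34.7 from Pdgfra+ nEnd, and that of *Pdgfa* 6.32 and 18.6. All 3 lists held a peak at *Pdgfa*, *Pdgfb* and *Kit*. *Pdgfra* and *Kitl* were in the DP and Pdgfra+ nEnd lists only, *Pdgfc* was in the Oct4+ nEnd list only, and *Pdgfrb* was in none.

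Counted over the 7 genes by percentile of total signal, the libraries of Oct4+ nEnd lay wholly below those of DP nEnd at 3 genes (*Pdgfra*, *Kit* and *Kitl*) and wholly above them at 1 (*Pdgfa*), where 23.3% and 4.21% of all genes tested did so. Against Pdgfra+ nEnd, Oct4+ nEnd lay below at 2 genes (*Pdgfra* and *Kitl*; background 18.8%) and above at 1 (*Pdgfa*; background 4.62%). DP nEnd lay above Pdgfra+ nEnd at 1 gene (*Pdgfa*; background 2.68%) and below it at none (background 4.64%), although without Pdgfra+ nEnd replicate 2 it lay below at 3 (*Pdgfra*, *Kit* and *Kitl*; background 14.8%). Without that library Oct4+ nEnd, too, lay below Pdgfra+ nEnd at these 3 genes (background 30.4%). A gene without overlap stays so when libraries are left out, so such counts can only stay or rise. Over Oct4+ nEnd replicates 1 and 2 alone, *Pdgfc* joined *Pdgfa* above DP nEnd (background 24.6%) and above Pdgfra+ nEnd (18.4%), and none joined the 3 genes below DP nEnd (23.4%) or the 2 below Pdgfra+ nEnd (18.8%). *Pdgfra* is counted here although the sort selects it. In the comparisons with Oct4+ nEnd, *Kitl* is counted because no Oct4+ nEnd library had a peak there. Over the 5 members tested other than *Pdgfra*, the median difference in percentile was -15.1 for Oct4+ minus DP nEnd (all genes -6.83), 1.93 for Oct4+ minus Pdgfra+ nEnd (all genes -7.42) and -0.0161 for DP minus Pdgfra+ nEnd (all genes -0.594). With *Pdgfra* included the first and second of these were -24.9 and -19, so the sign of the second rests on the sorted gene. No gene of the 11632 passed after adjustment in any pair. The lowest adjusted p was 0.252, 0.240 and 1, and 1320, 1387 and 0 genes had an unadjusted exact p under 0.05.

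By highest coverage, DP nEnd lay above Oct4+ nEnd at *Pdgfra*, *Kit* and *Kitl* (background 16.1%) and Pdgfra+ nEnd lay above it at *Pdgfra* and *Kitl* (11.7%). *Pdgfa* lay lower in Pdgfra+ nEnd than in Oct4+ nEnd (3.74%) and than in DP nEnd (2.20%). By width, DP nEnd exceeded Oct4+ nEnd at *Pdgfra*, *Kit* and *Kitl* (15.2%), Pdgfra+ nEnd exceeded it at *Pdgfra* and *Kitl* (3.52%), and *Pdgfa* was narrower in Pdgfra+ nEnd than in Oct4+ nEnd (4.65%) and than in DP nEnd (12.2%). *Pdgfa* in Oct4+ and DP nEnd overlapped by both measures. *Kitl* had no peak in any Oct4+ nEnd library. Its separation from Oct4+ nEnd by highest coverage, width or percentile of width therefore only restates that absence. At *Pdgfra* only Oct4+ nEnd replicate 1 had a measured peak, and the other Oct4+ nEnd libraries entered as absent. By percentile of width, an alternative chosen after seeing the data, DP nEnd exceeded Oct4+ nEnd at *Pdgfra*, *Pdgfa*, *Kit* and *Kitl* (15.0%), Pdgfra+ nEnd exceeded it at *Pdgfra*, *Kit* and *Kitl* (16.5%), and DP nEnd exceeded Pdgfra+ nEnd at *Pdgfa* (4.67%).

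Ratios between members within a library do not depend on a common factor in its coverage, although those of total signal also carry the width of each peak. They were not tested and no share over other pairs of genes was computed, so a lack of overlap describes these libraries only. The total signal of *Pdgfra* was 2.71, 2.81 and 3.05 times that of *Kit* in DP nEnd and 2.87, 2.82 and 3.14 times in Pdgfra+ nEnd, against 0.347 times in Oct4+ nEnd replicate 1. These ratios overlapped between the PDGFRA-sorted populations, but by highest coverage they did not, at 1.51, 1.54 and 1.44 in DP nEnd and 1.82, 2.14 and 1.90 in Pdgfra+ nEnd. *Pdgfa* had 1.97, 3.15, 2.95 and 6.29 times the total signal of *Kit* in Oct4+ nEnd, 1.17, 1.13 and 1.08 times in DP nEnd and 0.721, 0.878 and 0.799 times in Pdgfra+ nEnd, with no overlap between any 2 populations. By highest coverage DP nEnd (0.755 to 0.965) and Pdgfra+ nEnd (0.695 to 0.807) overlapped in this ratio. *Kitl* had 0.441, 0.405 and 0.325 times the signal of *Kit* in DP nEnd and 0.470, 0.542 and 0.418 times in Pdgfra+ nEnd, which overlapped. By highest coverage this ratio was 0.457 to 0.648 in DP nEnd and 0.734 to 0.793 in Pdgfra+ nEnd, without overlap.

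Genes with the most similar pattern were sought for each marked member as those with the smallest mean absolute difference in percentile over the 10 libraries. For *Pdgfra* these were *Lama1* (0.354 points), *Lamb1* (1.03) and *Serpinh1* (1.06), genes of basement membrane laminin chains and of a collagen chaperone. For *Kitl* they were *Slco2a1* (1.59), *Fgfr3* (2.58) and *Eps8l2* (2.72), none of which had a peak in any Oct4+ nEnd library. For *Pdgfa* they were *Plekhf2* (2.21), *Hexim1* (2.23) and *Hnrnpu* (2.39), and for *Kit* they were *Zfp651* (4.03), *Wwtr1* (4.08) and *Bend4* (4.15). *Pdgfb* was nearest to *Nynrin* (3.03), *Cox6c* (3.80) and *Gtf3c6* (3.82), and *Pdgfc* to *Pdxp* (0.646), *4930452B06Rik* (0.659) and *Kif26a* (0.665), where most values are 0.

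*Pdgfra* and *Kit* lie in the same stretch of chromosome 5, and the genes around them did not share one pattern. *Chic2* was marked in 3 of 4 Oct4+ nEnd libraries at percentile 45.6 or lower and in every DP (57.1 to 66.6) and Pdgfra+ nEnd library (38.4 to 80.2). The homeobox gene *Gsx2* had no peak in any library, and *Kdr*, a VEGF receptor gene, had a peak at percentile 17.6 in 1 Pdgfra+ nEnd library only.

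The wider pathway was followed through 33 genes of related receptors and ligands, PDGF-processing proteases, adaptors and enzymes, of which 28 had a peak in at least 1 library. *Pdgfd*, *Csf1r*, *Flt3*, *Il34* and *Plau* were the 5 without. In each of the DP and Pdgfra+ nEnd populations 24 of these 28 (85.7%) were marked in every library, where 72.8% and 62.6% of all genes tested were, and in Oct4+ nEnd 13 (46.4%), where 34.1% of all genes were. Oct4+ nEnd replicates 1 and 2 each had 24 of the genes marked, as did DP nEnd replicate 1 and Pdgfra+ nEnd replicate 2. Of the 11632 genes tested these 4 libraries had 9538, 8659, 9102 and 7356 marked. Oct4+ nEnd replicates 3 and 4, with the fewest peaks, had 13 and 16 of the pathway genes marked, and 4021 and 5521 of all genes tested. Oct4+ nEnd lay wholly below DP nEnd at 15 of 28 genes (53.6%, background 23.3%) and wholly below Pdgfra+ nEnd at 12 (42.9%, background 18.8%), and above either at none. The median difference was -26.3 points for DP nEnd and -24.3 for Pdgfra+ nEnd, where the medians over all genes were -6.83 and -7.42. Over Oct4+ nEnd replicates 1 and 2 alone, where these genes cannot come to overlap, no gene joined the 15 or the 12, with backgrounds of 23.4% and 18.8% and medians of -7.65 and -9.11, where all genes gave 0 and -1.10. In that setting 4 genes (*Cbl*, *Fyn*, *Grb2* and *Yes1*) lay above DP nEnd (14.3%, background 24.6%) and 1 (*Cbl*) above Pdgfra+ nEnd (3.57%, background 18.4%). DP nEnd lay above Pdgfra+ nEnd at 1 gene (*Furin*, a protease that processes PDGF chains; 3.57%, background 2.68%) and below it at 4 (*Gab1*, *Crk*, *Nck1* and *Plcg1*; 14.3%, background 4.64%). Without the narrow-peaked Pdgfra+ nEnd replicate 2, DP nEnd lay below Pdgfra+ nEnd at 13 of 28 (46.4%, background 14.8%) and Oct4+ nEnd below it at 18 (64.3%, background 30.4%).

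**Figure D4:**
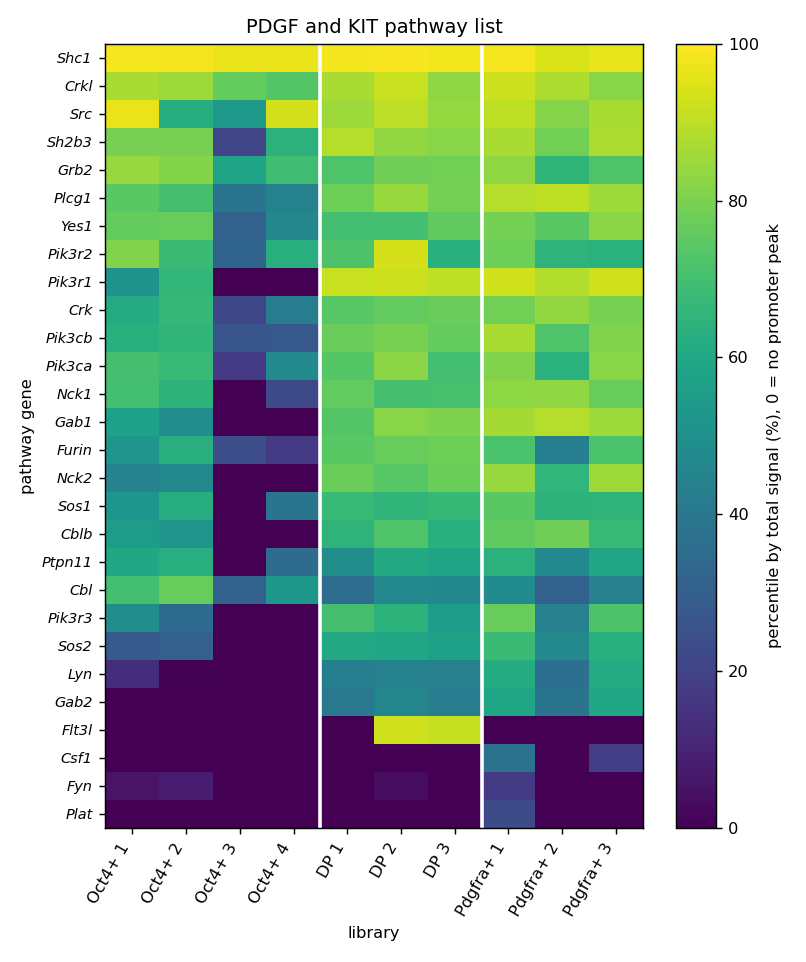
Percentile by total signal (colour, %, 0 = no promoter peak) of the 28 pathway genes with a peak (rows, ordered by their mean) in the 10 libraries (columns; white lines separate Oct4+, DP and Pdgfra+ nEnd). *Shc1* is high in every column, and *Pik3r1*, *Gab1*, *Nck2*, *Gab2*, *Lyn* and *Cblb* are dark in Oct4+ nEnd replicates 3 and 4.

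The 6 pathway genes described here were those with the largest difference in mean percentile in any comparison without overlap. *Sos2*, which is not among them, differed by -43.8 from DP nEnd, more than *Gab2*, *Cblb* and *Lyn* in that comparison alone. *Pik3r1*, the regulatory subunit of PI3-kinase that docks on activated PDGF receptors and KIT, was at percentile 51.3, 66.3, 0 and 0 in Oct4+ nEnd replicates 1 to 4, 91.7, 92.2 and 90.6 in DP nEnd and 92.7, 88.5 and 92.8 in Pdgfra+ nEnd (difference -62.1 for DP nEnd, p = 0.0571, exact two-sided permutation test). *Gab2*, a scaffold adaptor of KIT signalling, had no peak in 4 of 4 Oct4+ nEnd libraries and stood at 40.0, 45.9 and 42.4 in DP nEnd and 58.6, 38.3 and 59.6 in Pdgfra+ nEnd (p = 0.0286 for either comparison, same exact test). *Lyn*, a SRC family kinase linked to KIT, was at 12.9, 0.679, 0 and 0 in Oct4+ nEnd, 42.6 to 43.9 in DP nEnd and 36.4 to 62 in Pdgfra+ nEnd (p = 0.0286 for either comparison, same exact test). The lack of overlap at these 3 genes is part of how they were chosen, and none passed after adjustment over all genes (adjusted values 0.252 and 0.240 for *Gab2* and *Lyn*, 0.289 and 0.305 for *Pik3r1*). The adaptor genes *Gab1* and *Nck2* and the ubiquitin ligase gene *Cblb* were at 57.1 or lower in Oct4+ nEnd, with no peak in replicates 3 and 4, and at 63.4 or higher in the PDGFRA-sorted libraries. *Shc1*, the adaptor gene at the other end of the range, was at 94.5 to 99.2 in all 10 libraries.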

How the data were processed

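H3K4me3 CUT&Tag libraries of sorted Oct4+, DP and Pdgfra+ nEnd were used, grouped by the titles of the labels. The authors sequenced them paired-end, computed coverage with bedtools 2.26.0, called peaks against IgG with SEACR (stringent) and derived consensus peaks with DiffBind; Bowtie2, SAMtools 1.12, deepTools, bcl2fastq 2.19.1 and the build mm10 are named in the submitters' processing notes. The deposited values are signal, that is, total and highest coverage per peak, unscaled between libraries; the deposited consensus lists carry no signal and gave positions only. Reads are not listed, so the depth is unknown and no interval was computed.

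Promoters ran from 1000 bp before to 100 bp after each TSS, 93196 windows of GENCODE M21 genes (chromosomes 1 to 19 and X), overlap of 1 bp or more. The peak with the highest total signal was the leading peak. Presence was tested by Fisher's exact test, percentiles and widths by exact two-sided permutation, adjusted over 11632 genes. Named genes were the 7 members, up to 6 pathway genes with non-overlapping libraries and the largest difference in mean percentile, the 3 most similar genes per member marked in 3 or more libraries, genes sharing a peak, and *Chic2*, *Gsx2* and *Kdr*. *Shc1*, *Sos2* and the genes named in counts of 5 or fewer were chosen after their values were seen. Members and lists were chosen with earlier results of these data known. Alternatives were another window, coding TSSs, 50% coverage of the window, equal numbers of peaks, another leading peak, a log2 scale, leaving out libraries without a peak, a replicate block and leaving out each library. 1 further sequence is not reported here. Scripts ran in Python 3.11.15 with scipy 1.17.1 for the tests, pandas 2.3.3 and numpy 2.4.6 for tables and matplotlib 3.10.9 for figures.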

Additional observations from a re-analysis of the deposited data

Results flagged for a closer look

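In Oct4+ nEnd, replicate 1 stood far from the other 3 libraries at *Pdgfra*: it alone had a peak, at percentile 15.7 by total signal and 18.6 by highest coverage, with a width of 4427 bp and a percentile by width of 58.4, where the others were at 0. At *Pdgfb*, Oct4+ nEnd replicate 3 stood far from the others with a width of 0 bp, since it listed no peak there. A library was marked as standing apart when its gap to the nearest other library exceeded Dixon's limit as a share of the group's range. Chance flags about 1 in 20 groups of untied values this way, and that rate does not hold for *Pdgfra*, where the 3 other libraries are tied at 0.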

How the results depend on the processing

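Of 1030 values recomputed for the 6 members tested, 29 changed sign. No stability is read from the others, since DP against Pdgfra+ nEnd, the replicate block and every setting with a library left out have too few assignments to pass. The wider window, protein-coding TSSs and 50% coverage of the window changed none of these. With single libraries left out Kitl presence stayed at -100.0 percentage points in both comparisons, and Pdgfa in Oct4+ minus Pdgfra+ nEnd ranged from 12.0 to 21. Counts of members without overlap, which can only stay or rise when a library is left out, ranged from 3 to 4 (DP above Oct4+ nEnd), 2 to 3 (Pdgfra+ above Oct4+ nEnd), 1 to 2 (DP above Pdgfra+ nEnd) and 0 to 3 (Pdgfra+ above DP nEnd). The share of all genes rises too. Without Pdgfra+ nEnd replicate 2 it went from 18.8% to 30.4% for Pdgfra+ above Oct4+ nEnd and from 4.64% to 14.8% for Pdgfra+ above DP nEnd. For each other library left out it was not computed.

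With equal numbers of peaks Kitl presence in Oct4+ nEnd differed by 0 points from DP nEnd and -33.3 from Pdgfra+ nEnd, while Pdgfa (15.0 against DP nEnd) and Kit (-48.3 against DP nEnd, -51.0 against Pdgfra+ nEnd) passed. Kitl width in DP minus Pdgfra+ nEnd turned to -1215 bp. On the log2 scale Kit in Oct4+ minus Pdgfra+ nEnd passed (-0.934), and Pdgfb by highest coverage in Oct4+ nEnd turned to 0.0568 against DP nEnd. Which members lay without overlap against Pdgfra+ nEnd changed on this scale too. No share of all genes was computed there, so those counts are not given. Without libraries that lacked a peak, the members without overlap between Oct4+ and Pdgfra+ nEnd changed as well, again with no share of all genes computed. In that setting Pdgfb by highest coverage turned to 3.80 (Oct4+ minus DP nEnd) and -3.45 (DP minus Pdgfra+ nEnd), and by total signal to -0.776 (Oct4+ minus Pdgfra+ nEnd).

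Over Oct4+ nEnd replicates 1 and 2 alone, 2 members (Pdgfa and Pdgfc) lay higher than in either other population (backgrounds 24.6% for DP and 18.4% for Pdgfra+ nEnd), Kitl presence stayed at -100.0 and Pdgfa at 18.6 against Pdgfra+ nEnd with no exact p under 0.1 possible, and Pdgfb against DP nEnd turned to 7.33 by highest coverage and 153.0 bp by width. By percentile of width, DP minus Pdgfra+ nEnd turned to -0.545 (Pdgfra), -3.31 (Kit) and -3.80 (Kitl). These 2 settings were chosen after seeing the data. With all promoter peaks summed the Kit width in DP minus Pdgfra+ nEnd turned to -3.00 bp. The causes were not tested.

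Deviations of same-numbered replicates correlated at -0.203 to 0.209, within the -0.382 to 0.347 of replicates with different numbers. With 3 or 4 libraries per population this cannot decide whether same-numbered libraries share a culture or a sort. With a replicate block, whose smallest exact p is 0.250, Kitl presence stayed at -100.0 and Pdgfa in Oct4+ minus Pdgfra+ nEnd at 17.4 without passing, and Pdgfb by highest coverage in Oct4+ minus DP nEnd turned to 0.874. The count higher in Pdgfra+ than Oct4+ nEnd was 3 there, but by another rule. It holds members whose same-numbered differences all had the same sign, and Oct4+ nEnd replicate 4 did not enter. It is not a count without overlap, and its share over all genes was not computed. Leaving out single libraries turned the sign of differences that did not pass: Pdgfb by highest coverage (-4.46 to 4.67 in Oct4+ minus DP nEnd, -3.61 to 7.84 in Oct4+ minus Pdgfra+ nEnd, -3.45 to 8 in DP minus Pdgfra+ nEnd), by total signal (-8.12 to 9.60), width (-1008 to 1766 bp) and presence (-25.0 to 33.3 points) in Oct4+ minus Pdgfra+ nEnd, Pdgfa width in Oct4+ minus DP nEnd (-961.7 to 90.0 bp), and Kit in DP minus Pdgfra+ nEnd by total signal (-5.27 to 3.51) and highest coverage (-1.29 to 24.5). Unknown depth and unequal floors limit what an absent peak shows.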
